A study of Mus musculus with 12 samples.

Results

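The cytosolic ribosomal protein genes encode the proteins of the 40S and 60S ribosomal subunits. They were taken as every gene whose array symbol is Rpl or Rps followed by a number and at most 1 letter, together with Rplp0 to Rplp2 and Rpsa, and that has a probe set carrying no other symbol. This rule gave 59 genes of 19938 measured in the same way, with 215 probe sets among them. The rule uses names alone and no measured value. Of the 59 genes, 20 encode standard proteins of the small subunit and 33 encode standard proteins of the large subunit. The other 6 were taken as paralogs, that is, second copies of a ribosomal protein gene (Rpl3l, Rpl10l, Rpl32l, Rpl39l, Rps27l and Rps4l). Whether the signal of each is separate from that of its standard gene was not examined. A further 16 genes of the family, among them Rpl3, Rps27 and Rpl39, share every probe set with another gene and were not described one by one.

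Whole quadriceps muscle of C57Bl/6 mice was profiled on day 7 after birth, with 1 array per mouse as the study describes it. There were 6 arrays labeled wild type (WT) and 6 labeled cofilin-2 null (KO), and no treatment. Cofilin-2, encoded by Cfl2, is the muscle form of a protein that severs and remodels actin filaments. By the study's methods, the animals were littermates and were not pooled, and the null allele was not described as limited to a cell type.

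The labels were opposed by the deleted gene itself. Cfl2 was at 12.31 to 12.43 on the log2 scale on the 6 arrays labeled KO, with a mean of 12.38 ± 0.06 (SD, n = 6). On the 6 arrays labeled WT it was at 4.92 to 7.71, with a mean of 6.06 ± 1.02 (SD, n = 6). Whether this probe set reads the deleted sequence was not examined, and all arrays were kept in the groups of their titles. The labels alone do not settle whether the titles of the groups were exchanged. If they were, each level described below as lower in labeled KO would be higher in the cofilin-2 null muscle, and the reverse. Groups are therefore called labeled KO and labeled WT, and every difference is labeled KO minus labeled WT. The sign of these differences is opposite to that of the study for the genes whose direction it states. The Y-linked gene Eif2s3y was between 4.78 and 9.35 on the arrays labeled WT and between 5.97 and 9.42 on those labeled KO. Some arrays had intermediate values, and Xist also varied within both groups. Single arrays could hold both, since KO2 had Xist at 9.76 with Eif2s3y at 8.85, and WT2 had 8.28 with 9.35. By contrast, WT3 had 11.5 with 4.78, and WT5 had 4.78 with 9.15. Whether some arrays hold RNA of more than 1 mouse was not tested. With the Y-linked level in the model, 15 ribosomal protein genes were called lower and 2 higher, against 14 and 2 without it. Of all genes, 12.1% were lower and 20.2% higher with it, and 11.8% and 20.1% without it.

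The ribosome is built from ribosomal RNAs and a large set of proteins that are needed in equal numbers, so the messenger RNAs of these proteins are usually held at similar and high levels in every cell. Many of them begin with a run of pyrimidines, the 5′ terminal oligopyrimidine (TOP) tract, through which the kinase complex mTORC1 and the RNA-binding protein Larp1 control their translation. Skeletal muscle and heart add a variation to this common set, since mature striated muscle makes Rpl3l, a paralog of the large-subunit protein Rpl3.

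The annotated start sites of these genes are shown first, because the TOP tract is the sequence feature that the family is known for. Sequences came from RefSeq promoter windows of the build GRCm38.p6, which held 47 of the 59 genes, and the window of the start farthest upstream stood for a gene. Each line below gives the 15 bases before and the 15 bases after that start, 5′ to 3′ on the strand of the gene, with the longest run of C and T in capitals. The first 7 genes were called lower in the labeled KO arrays and have a run of at least 7 bases. The last 3, which also have such a run, were not called.
Rps18 (chr17:33955651-33955680, minus strand): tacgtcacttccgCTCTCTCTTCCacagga
Rpl4 (chr9:64173372-64173401, plus strand): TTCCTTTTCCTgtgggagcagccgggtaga
Rpl38 (chr11:114668565-114668594, plus strand): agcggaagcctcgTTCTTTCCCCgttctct
Rps15a (chr7:118116133-118116162, minus strand): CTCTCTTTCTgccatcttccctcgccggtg
Rpl32l (chr10:20208424-20208453, plus strand): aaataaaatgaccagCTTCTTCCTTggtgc
Rps9 (chr7:3704026-3704055, plus strand): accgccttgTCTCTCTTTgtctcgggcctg
Rps12 (chr10:23787195-23787224, minus strand): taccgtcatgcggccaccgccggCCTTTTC
Rps6 (chr4:86857353-86857382, minus strand): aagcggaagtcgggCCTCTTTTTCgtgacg
Rpl28 (chr7:4792950-4792979, plus strand): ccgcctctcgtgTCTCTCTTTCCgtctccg
Rpl7a (chr2:26910792-26910821, plus strand): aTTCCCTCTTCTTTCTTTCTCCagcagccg

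A run of at least 7 bases of C and T lay within these 30 bases in 22 of the 47 genes (46.8%), against 18.4% of the 27025 genes with a window. The share was 46.7% among the 15 of these 47 genes that were called in either direction (7 genes) and 46.9% among the 32 that were not called (15 genes). The longest run was 2 to 3 bases in the windows of Rpl24, Rpl10 and Rpl23. Whether these annotated starts are the ones used in muscle was not examined. A run was counted wherever it lay in the 30 bases, and those of Rpl4 and Rps15a lay wholly before the annotated start. The counts are therefore not counts of TOP tracts.

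Of the 59 genes, 14 were called lower in the labeled KO arrays at an adjusted p under 0.05 (limma, Benjamini-Hochberg over 21789 probe sets), which is 23.7% of them against 11.8% of all genes. Only 2 were called higher, Rpl3l and Rps4l, or 3.39% against 20.1% of all genes. The 14 falls were small, from -0.24 to -0.11 on the log2 scale, which is 15.3% to 7.13% below labeled WT. By contrast, Rpl3l was 2.47-fold higher in labeled KO. Of all 59 differences 44 were negative, 14 positive and 1 zero, with a median of -0.05 against -0.015 over all genes. Both medians are differences on the log2 scale.

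These counts depended on how the arrays were scaled. The levels as deposited had array medians of 6.44 ± 0.01 (SD, n = 6) in labeled WT and 6.39 ± 0.02 (SD, n = 6) in labeled KO, while the 75th percentiles went the other way, at 8.45 ± 0.03 and 8.52 ± 0.03. When each array was centered on its median, 2 genes remained called lower, Rpl24 and Rps18, and 3 were called higher. Centering on the 75th percentile, an alternative chosen after the data were seen, gave 32 lower and 1 higher. The background moved with them, from 11.8% lower and 20.1% higher as deposited to 6.72% and 25.8% with median centering and 25.5% and 14.6% with centering on the 75th percentile. The median over the 59 genes was -0.0025 with the first centering and -0.12 with the second, beside 0.036 and -0.085 over all genes. With array KO3 left out 8 genes were called lower, beside 11.3% of all genes, and with KO2 left out 9, beside 10.6%.

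**Figure D1:**
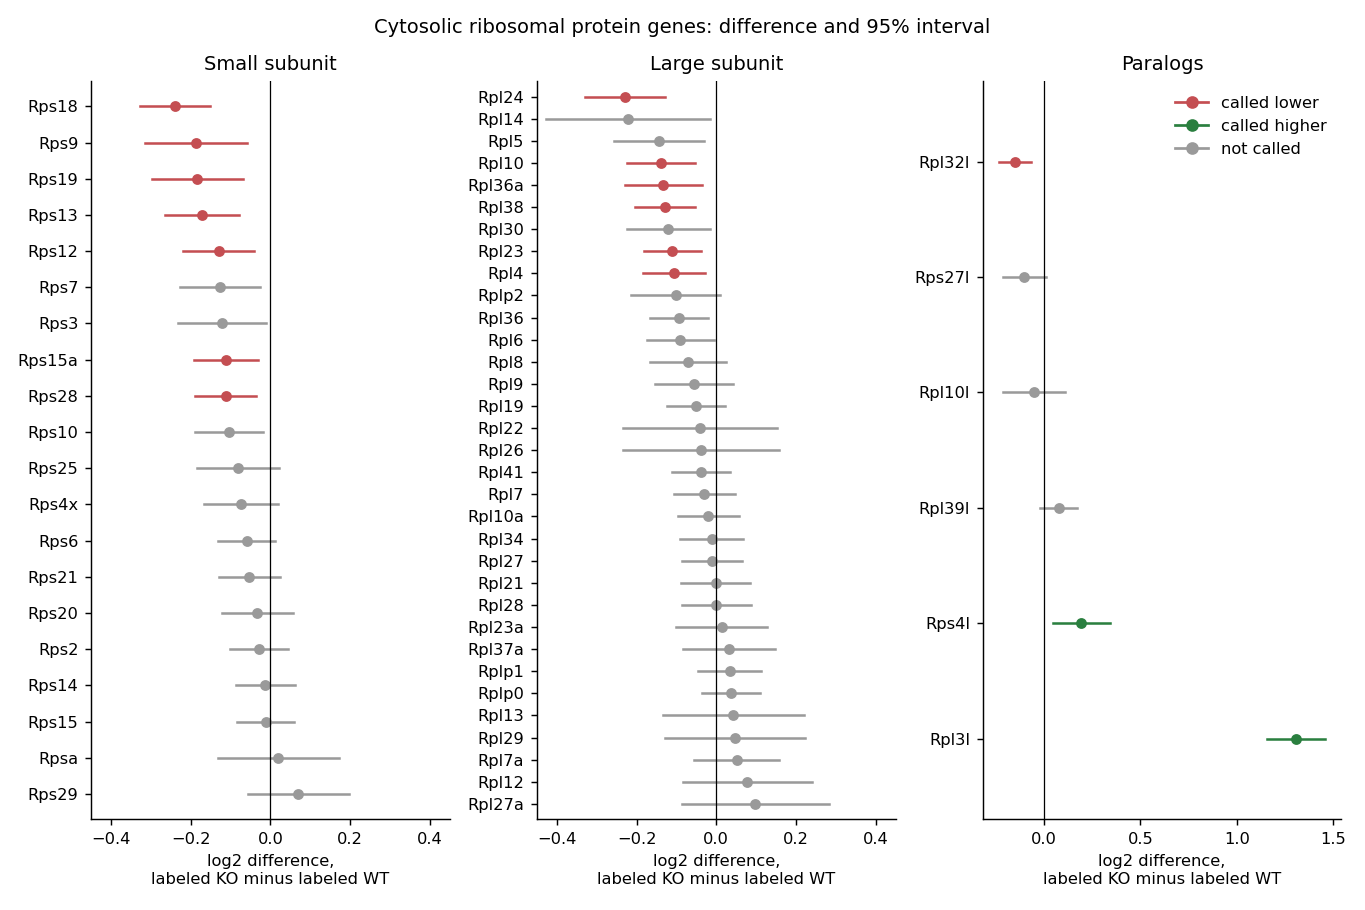
Difference between labeled KO and labeled WT on the log2 scale (horizontal axis) for each of the 59 genes, split into small subunit, large subunit and paralogs, with points for the estimate, bars for its 95% interval (n = 6 arrays a group) and colors for the call. The 53 standard genes lie between -0.24 and 0.10, whereas Rpl3l, on a wider axis, lies at 1.31.

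The 43 genes that were not called had differences of -0.22 to 0.10, and 54 of all 59 genes had a 95% interval within 1.25-fold in either direction. The 5 exceptions were Rpl14, Rpl24, Rps18, Rps4l and Rpl3l. The bound of 1.25-fold, 0.322 on the log2 scale, is wider than every called fall. It therefore does not set the genes that were not called apart from those called lower. A difference under 0.25 in size was found in 58 of the 59 genes and in 79.0% of all genes. Most ribosomal protein probe sets are bright, and 47 of the 59 had a mean level of at least 10, so the 2028 genes at or above that level serve as a second background. Of these, 18.4% were called lower and 28.6% higher, with a median difference of 0.04.

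Rpl3l had the widest separation in the family. Its protein takes the place of Rpl3, near the peptidyl transferase center, in ribosomes of mature striated muscle. Its level on the 6 arrays labeled WT ran from 9.10 over a median of 9.335 to 9.44, and on the 6 labeled KO from 10.47 over 10.59 to 10.80. Every labeled KO array was above every labeled WT array, and the gap between the nearest arrays was wider than the range of either group. The difference was 1.31 ± 0.07 (SE, 95% interval 1.16 to 1.46, limma adjusted p = 1.46e-07). Ranked by size among the rises of 19938 genes, it was number 37. Over the 24 other fits, which include each array left out in turn, the difference stayed between 1.24 and 1.42 and was called in all 24.

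The bases before the annotated start of Rpl3l are shown because this gene had the largest difference of the family. The window covers chr17:24727576-24727825 on the plus strand (GRCm38.p6, RefSeq), and capitals mark each E-box, CANNTG, the motif that myogenic factors of the MyoD family are known to bind.
Rpl3l: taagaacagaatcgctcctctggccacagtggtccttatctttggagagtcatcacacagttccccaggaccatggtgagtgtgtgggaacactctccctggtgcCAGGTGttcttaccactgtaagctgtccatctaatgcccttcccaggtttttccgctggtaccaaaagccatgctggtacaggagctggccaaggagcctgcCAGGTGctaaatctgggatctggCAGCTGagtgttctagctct

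The 3 E-boxes, which read the same class of letters on both strands, begin 145, 43 and 20 bases before the start. As many or more were found in the same 250 bases of 12.1% of all genes, and in 1 of the 47 ribosomal protein genes, Rpl3l itself. Their median was 0 per window for the ribosomal protein genes and 1 for all genes. In the whole windows of 300 bases, CCGGAAG, a core of ETS family sites known from ribosomal protein promoters, occurred on either strand in 17 of the 47 genes (36.2%) against 9.14% of all genes. ATGGCG, a core of YY1 sites, occurred in 14 (29.8%) against 9.25%. Motifs were counted independently, whether or not they overlapped another. Neither of these was in the 250 bases before Rpl3l. CCGGAAG was in 2 of the 15 genes that were called and in 15 of the 32 that were not, and ATGGCG in 4 and 10. These matches describe letters, and no binding was measured.

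The small subunit showed 7 called falls among its 20 standard genes (35.0%, against 11.8% of all genes and 18.4% of those with a mean level of at least 10), with a median difference of -0.09. Rps18, which sits in the head of the subunit, had the largest. It was at 12.20, 12.26 and 12.42 (lowest, median and highest) in labeled WT and at 11.98, 12.045 and 12.06 in labeled KO. The groups did not overlap. The difference was -0.24 ± 0.04 (SE, adjusted p = 0.00058 by limma), and Rps18 was the 1 gene of the family called lower in all 24 other fits. All 7 of its probe sets were called lower, at -0.27 to -0.24.

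Rps13, which lies on the platform side of the small subunit, fell by 0.17 on the log2 scale (SE 0.04, limma adjusted p = 0.00829). Its levels were 10.68, 10.75 and 10.83 in labeled WT and 10.49, 10.59 and 10.66 in labeled KO (lowest, median and highest), again without overlap, and all 3 of its probe sets were called. Rps9, a protein of the subunit body that binds early in assembly, had a difference of -0.19 ± 0.06 (SE, adjusted p = 0.0283). It ran from 11.23 over 11.335 to 11.52 in labeled WT and from 11.05 over 11.14 to 11.38 in labeled KO, where array KO1 was the highest and lay inside the labeled WT range. Rps19, the gene most often mutated in Diamond-Blackfan anemia, had a difference of -0.18 ± 0.05 (SE, adjusted p = 0.0168), with 11.49 to 11.80 in labeled WT and 11.33 to 11.50 in labeled KO. These groups overlapped by 1 array on each side.

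The remaining called falls of the small subunit were smaller. Rps12 had a difference of -0.13, and all 14 of its probe sets were called, although only 8 of the 14 held distinct values. Rps28 and Rps15a each had a difference of -0.11 and showed no overlap between groups. The call was kept in 5 of the 12 fits that left out 1 array for Rps15a, in 7 for Rps9 and in 8 each for Rps12 and Rps28. Rps6, the substrate of S6 kinase and the classic readout of mTORC1 activity at the protein level, was at 13.02 to 13.13 in labeled WT and 12.97 to 13.03 in labeled KO. Its difference was -0.06 (95% interval -0.13 to 0.01, adjusted p = 0.184 by limma), so it did not pass. Rps7 (-0.13, adjusted p = 0.0531) and Rps10 (-0.10, adjusted p = 0.061) lay just outside the threshold, as did Rps3 (-0.12, adjusted p = 0.089).

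**Figure D2:**
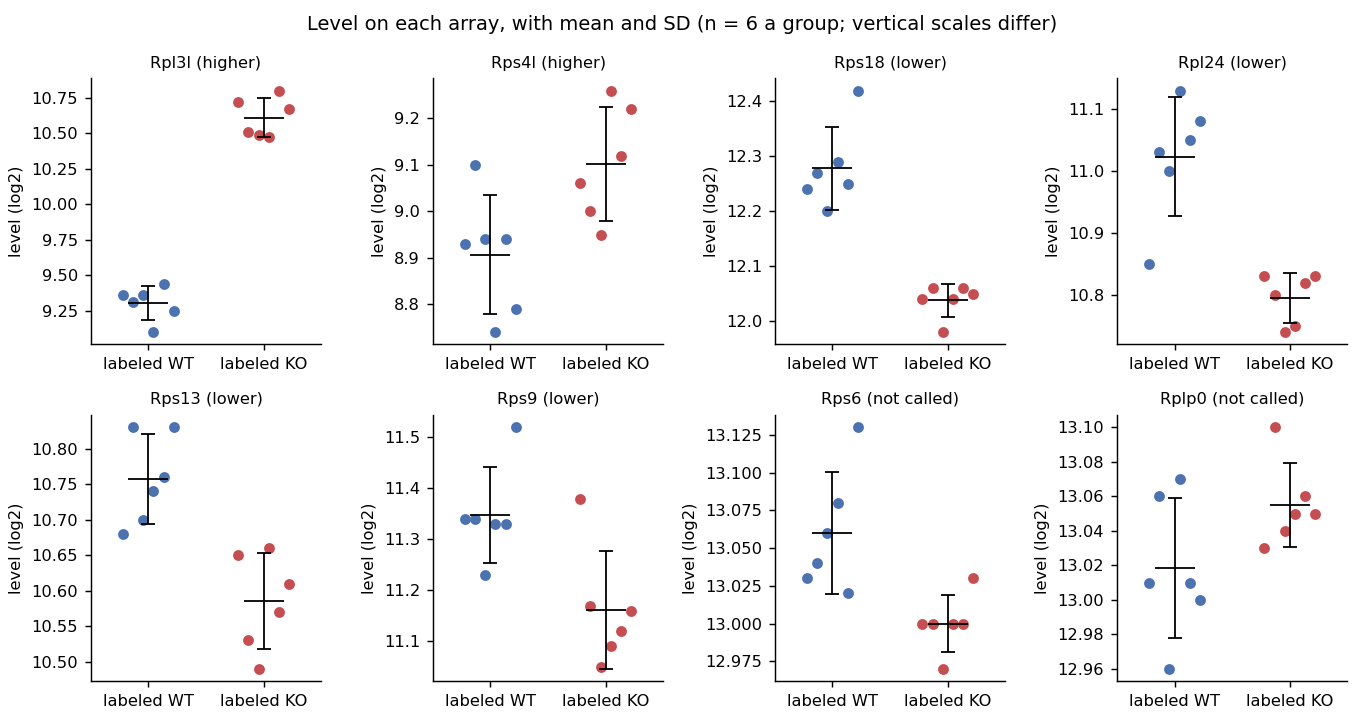
Level on the log2 scale (vertical axis, scaled separately for each gene) on each of the 12 arrays for 8 ribosomal protein genes, with points for arrays and black lines for the mean and SD (n = 6 a group). Rpl3l, Rps18, Rpl24 and Rps13 separate the groups fully, whereas Rps4l, Rps9, Rps6 and Rplp0 overlap.

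In the large subunit, 6 of 33 standard genes were called lower, with a median difference of -0.04. This share, 18.2%, was above the 11.8% of all genes but close to the 18.4% of genes with a mean level of at least 10. The largest difference was that of Rpl24, a late-joining protein whose mutation causes the Belly spot and tail phenotype in mice. It was at 10.85, 11.04 and 11.13 in labeled WT and at 10.74, 10.81 and 10.83 in labeled KO (lowest, median and highest). The groups did not overlap, although array WT1, the lowest of its group, lay close to the labeled KO arrays. The difference was -0.23 ± 0.05 (SE, limma adjusted p = 0.0021), all 3 probe sets were called, and the call held in 23 of the 24 other fits.

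Rpl10, which joins last and is needed for the subunits to unite, had a difference of -0.14 ± 0.04 (SE, limma adjusted p = 0.0159). It ran from 12.79 to 12.89 in labeled WT and from 12.60 to 12.76 in labeled KO, with no overlap and all 6 probe sets called. Rpl38, whose loss causes skeletal patterning defects in the Tail short mouse, had a difference of -0.13 and all 4 probe sets called, with 1 level of 12.15 shared by both groups. Rpl36a was at -0.13, Rpl23 at -0.11 with no overlap, and Rpl4, which lines the peptide exit tunnel, at -0.11. Rpl23 was called by 1 of its 2 probe sets, since the other was at -0.02. Of the 12 fits that left out 1 array, the call of Rpl36a was kept in 3 and that of Rpl4 in 5. The 8 genes of the family called lower in all 12 of these fits were Rps18, Rpl24, Rps13, Rps19, Rpl10, Rpl32l, Rpl38 and Rpl23.

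The other 27 large-subunit genes were not called. Rpl14 had the second largest negative difference, -0.22, but with a 95% interval of -0.43 to -0.02 and an adjusted p of 0.0935 in limma it was not called. Rpl5, which with Rpl11 and the 5S RNA can bind Mdm2 and stabilize p53, was at -0.14 (adjusted p = 0.051). Rpl36 was at -0.09 (adjusted p = 0.0509) with no overlap between groups. At the other end, Rplp0, the base of the stalk that recruits elongation factors and a common reference gene in quantitative PCR, was at 12.96 to 13.07 in labeled WT and 13.03 to 13.10 in labeled KO. Its difference was 0.04 (95% interval -0.04 to 0.11). Rpl28 had equal means in both groups. Rpl7 was at -0.03 and Rpl22, which is not essential for the ribosome, at -0.04, with 95% intervals of -0.11 to 0.05 and -0.23 to 0.15.

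None of the 53 standard genes was called higher by limma. At an unadjusted p under 0.05 the count was also 0, by limma and by the methods' t-test, whereas 21 (39.6%) had a lower level at that unadjusted p in limma, against 18.2% of all genes and 22.7% of genes with a mean level of at least 10. In terms of overlap, 9 of all 59 genes had every labeled KO array below every labeled WT array, or 15.3% against 4.69% of all genes. They were Rps18, Rpl24, Rps13, Rpl32l, Rpl10, Rps28, Rps15a, Rpl23 and Rpl36. In the other direction there was 1, Rpl3l (1.69% against 10.7%).

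Of the 6 paralogs, 2 were called higher and 1 lower. Besides Rpl3l, the one called higher was Rps4l, with a difference of 0.195 ± 0.07 (SE, adjusted p = 0.0421 by limma). It is a mouse paralog of the X-linked gene Rps4x. It ran from 8.74 over a median of 8.935 to 9.10 in labeled WT and from 8.95 over 9.09 to 9.26 in labeled KO, so the groups overlapped. Both of its probe sets were called, but the call was kept in only 3 of the 12 fits that left out 1 array. Rps4x itself was at -0.07 (adjusted p = 0.211). Rpl32l, by its name a copy of Rpl32, was called lower at -0.15 ± 0.04 (SE, adjusted p = 0.00821 by limma), from 9.36 to 9.48 in labeled WT and from 9.20 to 9.35 in labeled KO. The remaining paralogs were not called. Rps27l, a p53 target, was at -0.10 (adjusted p = 0.161), Rpl10l, known from testis, at -0.05 and Rpl39l, also known from testis, at 0.08. Rpl39l was dim, at 5.43 to 5.69 over all 12 arrays. Of genes whose names the rule does not take, Rpl7l1 was called higher at 0.14, Rps3a1 was called lower at -0.22 ± 0.07 (SE, limma adjusted p = 0.0272), and Fau, the source of Rps30, was at -0.035 and not called.

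Ribosomal protein genes have many processed copies in the genome, so a probe set of one may also take up RNA of copies. The 215 probe sets were counted as repeated looks at 59 genes and not as replicates. Of these probe sets 65 were called lower (30.2%) and 3 higher (1.4%), against 12.4% and 19.5% of all probe sets with 1 symbol, and no gene had probe sets called in opposite directions. There were 39 genes with more than 1 probe set. Within each, the probe sets mostly lay close together. Another probe set called 5 further genes lower, Rpl36 (8 of 9 probe sets), Rpl5 (3 of 5), Rps10 (2 of 3), Rps7 (1 of 3) and Rps6 (1 of 8), which brings the genes with any probe set called lower to 19. Of the 233 probe sets that share a ribosomal protein symbol with another gene, 48 were called lower (20.6%) and 0 higher (limma over all rows), against 10.7% and 10.4% of all probe sets with several symbols, with 0 higher at an unadjusted p under 0.05 as well, and their median difference was -0.03.

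**Figure D3:**
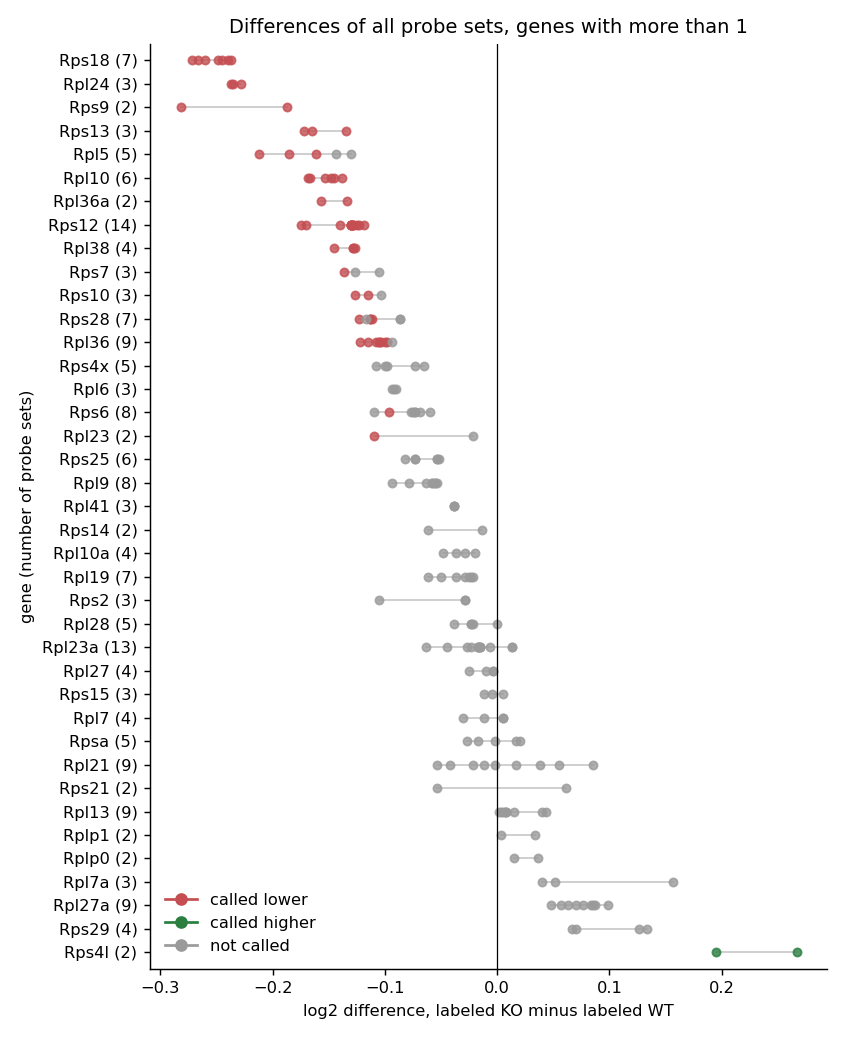
Difference between labeled KO and labeled WT on the log2 scale (horizontal axis) of each probe set for the 39 genes with more than 1 probe set, with 1 row per gene, its number of probe sets in brackets, and colors for the call. The 7 probe sets of Rps18 and the 14 of Rps12 all lie on the negative side and are all called, and those of Rps4l are the ones called higher.

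Other parts of the translation machinery, taken from lists of known genes, had calls in both directions. Over all genes, 11.8% were called lower and 20.1% higher. Elongation factors and other TOP messenger RNAs had 5 called lower and 2 higher of 17 measured, with a median difference of -0.09. Among them, Gas5, a noncoding host of small nucleolar RNAs with a TOP tract, was at -0.50, Naca, which binds nascent chains, at -0.30, the initiation cofactor Eif4b at -0.295, and the translocase Eef2 at -0.16. Higher were Eef1e1 at 0.44 and Eef1a2, the elongation factor form of mature muscle, at 0.23. Eef1e1 is named as an elongation factor but is a subunit of the aminoacyl-tRNA synthetase complex. Whether it has a TOP tract was not examined. Of 38 initiation genes, 9 were called lower and 4 higher. The lists share 4 genes, Eif3e, Eif3f, Eif3h and Eif4b, so Eif3e and Eif4b count among the falls of both. The initiation list included Eif3a at -0.37 and Eif2s2, a subunit of the factor that brings the initiator tRNA, at -0.31. The kinase Eif2ak2, which phosphorylates that factor, was at 0.60 and the cap-binding protein Eif4e at 0.53.

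Genes of ribosome assembly and ribosomal RNA synthesis had 7 called lower and 19 higher of 92, with a median of 0.03. The share of rises in this list was close to the 20.1% of all genes, and its share of falls was below their 11.8%. The same all-gene shares stand beside the counts of the lists below. Rrp12, an export factor of pre-ribosomes, was at -0.49 and the nucleolar proteins Npm1 and Ncl at -0.22 and -0.16, while Dkc1 and Nop56, of the small nucleolar ribonucleoproteins, were at 0.30 and 0.29. Of 29 genes of the mTORC1 and S6 kinase pathway, 8 were lower and 9 higher. Mtor was at -0.335, Larp1 at -0.27 and the mTORC1 inhibitor Ddit4 at -0.79, whereas the inhibitor Deptor was at 0.55. Pdpk1, the kinase that activates Akt and S6 kinase, was at -0.69, and the mTOR subunit Mlst8 was at 0.48. Genes for the proteins of the mitochondrial ribosome, a separate particle, had 35 called higher and 1 lower of 77, with a median of 0.17. All values of single genes and all medians in these sentences are log2 differences from the same limma fit, and the difference between lists was not tested.

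**Figure D4:**
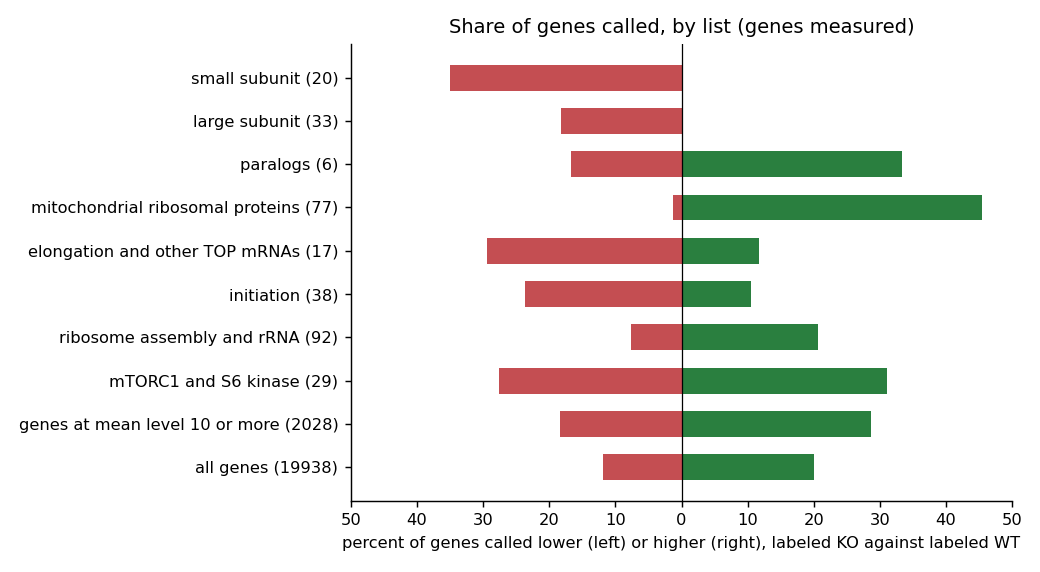
Percent of genes called lower (bars to the left of 0) or higher (bars to the right) in labeled KO, for the ribosomal protein genes by kind, for other lists of the translation machinery, for genes with a mean level of at least 10 and for all genes, with the number measured in brackets. Small and large subunit genes have bars to the left only, at 35.0% and 18.2%, against 11.8% of all genes and 18.4% of genes with a mean level of at least 10.

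Cell type markers moved between the groups as well, and in whole muscle fewer cells of a type cannot be told apart from less RNA per cell. Skeletal muscle fiber markers averaged 12.61 to 12.90 in labeled WT and 12.72 to 12.95 in labeled KO, with 7 of 12 called lower and 1, Myh4, the fastest adult myosin, called higher at 1.70. Adipocyte markers averaged 8.45 to 9.45 in labeled WT and 8.50 to 10.22 in labeled KO, with 4 of 7 called higher. Of the markers of other cells, 6 of 7 for macrophages were called higher (8.15 to 8.66 and 8.70 to 8.90). So were 6 of 7 for fibroblasts (10.55 to 10.85 and 10.93 to 11.16), where the other 1 was called lower. For endothelium, 4 of 6 were called higher (9.70 to 10.16 and 10.22 to 10.36). Of all genes, 11.8% were called lower and 20.1% higher. With the adipocyte level of each array in the model, 2 ribosomal protein genes were called lower, Rps18 and Rps15a, and 1 higher, Rpl3l, beside 5.0% and 11.3% of all genes. The differences themselves moved by varying amounts and in both directions. Their median was -0.04 against -0.05 without the covariate. Rps19 was at -0.20 against -0.18 and Rps15a at -0.19 against -0.11. Closer to zero were Rpl10 at -0.12 against -0.14, Rps9 at -0.16 against -0.19 and Rpl24 at -0.17 against -0.23. So were Rpl32l at -0.09 against -0.15, Rpl23 at -0.07 against -0.11 and Rps12 at -0.09 against -0.13. Rpl22, called in neither fit, was at 0.08 against -0.04. The part of any of these cell types in the differences was not tested.

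Over all 59 genes together, the deviation of each array from the gene means had a median of 0.00 to 0.075 on the arrays labeled WT and -0.06 to -0.01 on those labeled KO. No labeled KO array was above a labeled WT array in this measure, but the nearest arrays were only 0.007 apart. With each array first centered on its median, the groups overlapped, at -0.03 to 0.07 in labeled WT and -0.04 to 0.035 in labeled KO. The same measure over all genes ran from -0.03 to 0.01 and from -0.01 to 0.02.

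**Figure D5:**
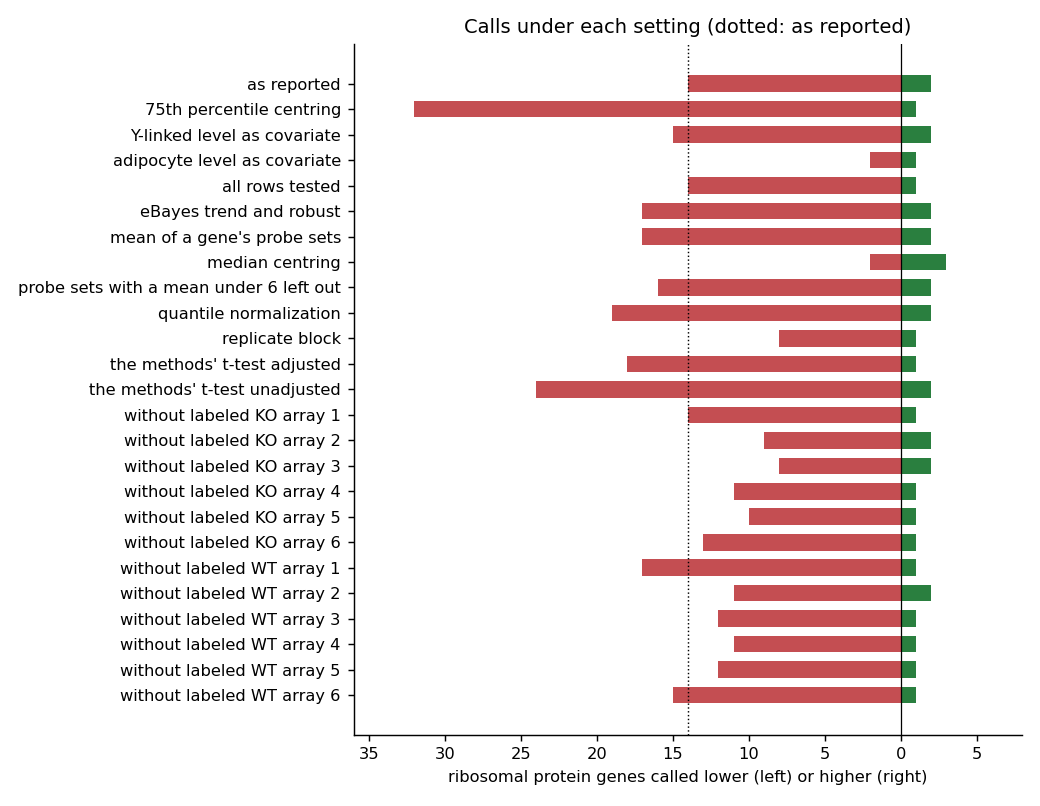
Number of the 59 genes called lower (bars to the left of 0) or higher (bars to the right) as reported and under each other setting, with a dotted line at the reported 14 lower. The count of falls runs from 2, with median centering or the adipocyte level as a covariate, to 32 with centering on the 75th percentile, while the count of rises stays between 1 and 3.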

How the data were processed

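The authors hybridized 12 Affymetrix Mouse Gene 1.0 ST arrays and deposited log2 levels per probe set, summarized with Affymetrix Power Tools. The sources used here do not name the algorithm or the build, and the values themselves gave the log2 scale. Of 35556 rows, 21789 had 1 symbol in the platform annotation, 1621 several and 12146 were not listed. Of the rows with 1 symbol, 21698 were matched to RefSeq (GRCm38.p6) by identifier and took its symbol, whether or not it differed. For each gene the probe set with the highest mean stood for it.

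Differences came from limma 3.58.1 (R 4.3.3, lmFit and eBayes, 2-sided) without covariates or a filter, adjusted by Benjamini-Hochberg, threshold 0.05. The fit was tested on simulated data. Precision is limited by the number of arrays. The members and lists were chosen with earlier results of these data known. Named are members past the threshold (up to 15 falls and 10 rises), members with paralogs, the brightest and dimmest, ribosomal proteins under other names, and up to 4 called genes per other list. Rps6, Rpl14, Rpl5, Rps3, Rps7, Rps10, Rpl36, Rpl28, Rps3a1, Mtor, Larp1, Npm1, Ncl, Nop56, Eef2 and Eef1a2 were named with their values in view, as were Xist and Eif2s3y. By the study's methods, the 12 arrays came from separate mice. Same-numbered arrays did not deviate together (correlations -0.22 to 0.17), so numbers were not used as pairs. Markers of 13 cell types were measured; those not named above are given in the closing section.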

Additional observations from a re-analysis of the deposited data

Results flagged for a closer look

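Among 48 groups of 6 arrays tested (the named genes and the median over the family, in each group), 4 held an array far from the other 5 by Dixon's criterion, where chance gives about 1 in 20. Rps9 on array KO1 was at 11.38, with the other labeled KO arrays at 11.05 to 11.17. Rps18 on array KO3 was at 11.98, with the others at 12.04 to 12.06. Rps4x on array KO3 was at 11.67, with the others at 11.78 to 11.84. Rpl7 on array WT6 was at 11.49, with the other labeled WT arrays at 11.57 to 11.61.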

How the results depend on the processing

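As reported, 14 genes were called lower and 2 higher, with a median difference of -0.05. Median centering gave 2 lower and a median of -0.0025, and centering on the 75th percentile, chosen after the data were seen, gave 32 lower, 1 higher and a median of -0.12. With the adipocyte level as a covariate 2 were lower and 1 higher, with a median of -0.04, and the unadjusted t-test of the methods gave 24 lower, beside 17.7% of all genes lower and 23.5% higher. The adjusted t-test and the test over all rows each gave 1 higher, beside 18.4% and 18.6% of all genes. A replicate block paired same-numbered arrays, though their deviations did not correlate and 1 of 6 numbers was best matched by its own. It gave 8 lower and 1 higher, beside 9.44% and 18.4% of all genes. Leaving out each array in turn gave 8 to 17 lower, 1 to 2 higher and medians of -0.07 to -0.05. Over all genes these fits gave 9.32% to 13.0% lower and 17.8% to 20.5% higher. In all 12 of these fits, 8 genes were called lower. A wider list with Fau and Rpl7l1, but without Rps3a1, gave 14 lower and 3 higher. The cause of these shifts was not tested. Of the 23 genes named by rule, none reversed with a call under any setting. Differences near 0.1 lie at the limit of what 6 arrays a group can resolve.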

Other observations

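Of the marker lists not given above, called higher were 2 of 5 satellite cell, 1 of 5 brown fat, 2 of 5 tendon and 1 of 5 smooth muscle markers, and called lower were 1 of 5 tendon and 2 of 5 smooth muscle markers. Neutrophil (5 measured), lymphocyte (4), red cell (3) and Schwann cell (2) markers had none past the threshold. Of all genes, 11.8% were called lower and 20.1% higher. Neutrophil levels ran from 5.82 to 9.23 on the arrays labeled WT and from 5.64 to 6.10 on those labeled KO.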
